A study of Mus musculus with 15 samples.

Results

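The urea cycle and the enzymes that break down amino acids were followed as 1 module in mouse liver, in 43 listed genes of which 42 were measured among 19938 genes. A gene counted as measured when a probe set of the array carried its symbol and no other, and where several did, the brightest on average was used. The listed gene without one belonged to tyrosine breakdown and was not analysed here. The 42 genes fell into 7 pathways: 6 of the urea cycle, 9 of glutamate, transamination, ornithine and proline, 4 of tyrosine, 6 of tryptophan and lysine, 11 of glycine, one-carbon units, methionine and cysteine, 4 of histidine, and 2 of urate and asparagine. The study asked how the plasticizer di(2-ethylhexyl) phthalate (DEHP) acts through the nuclear receptors PPARα and CAR. All 15 animals were male mice aged 7.5 months ± 2.5 weeks, and each gave 1 array of total liver RNA. DEHP was given by gavage in corn oil at 1150 mg/kg/day for 4 days, and the other animals received corn oil alone. There were 3 PPARα-null mice given DEHP (KO-121 to KO-123), 4 PPARα-null mice given corn oil (KO-115 to KO-118), 4 wild-type mice given DEHP (WT-56 to WT-59) and 4 wild-type mice given corn oil (WT-52 to WT-55). The nulls, 129S4/SvJae-Pparatm1Gonz/J, carry the deletion in the germline and so in all cells, and the wild-type mice were 129S1/SvlmJ. Substrain and genotype therefore cannot be told apart. Values of single animals are given below in the order of their numbers, on the log2 scale of the deposited intensity. Differences are log2 values ± standard error, and words such as rose and fell are kept for genes with an adjusted p below 0.05.

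When amino acids are burned in the liver, transaminases pass their nitrogen to glutamate, glutamate dehydrogenase frees it as ammonia, and the urea cycle turns ammonia into urea. The carbon skeletons go on to glucose, ketone bodies or the citric acid cycle, and serine, glycine, histidine and the methyl groups of choline feed one-carbon units into folate. These pathways are spread unevenly over the liver lobule: the urea cycle and histidine breakdown sit mostly in periportal hepatocytes, whereas glutamine synthetase and ornithine aminotransferase sit in the pericentral cells next to the hepatic vein. Glucagon and glucocorticoids raise many of these enzymes in fasting. PPARα, which switches on fatty acid oxidation in fasting, is known to lower mRNAs of amino acid breakdown in mouse liver when an agonist activates it.

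Histidine is broken down in 4 steps, and the genes of all of them fell with DEHP in wild-type mice, so their upstream sequences are shown. Hal encodes histidine ammonia-lyase, which makes urocanate, Uroc1 urocanase, Amdhd1 imidazolonepropionase, and Ftcd the enzyme that moves the formimino group to folate. Hal and Amdhd1 are next to each other among the protein-coding genes of chromosome 10. Each line gives the bases directly before the gene in RefSeq (build GRCm38.p6), 5′ to 3′ on the gene's own strand, up to 250 bases and fewer where that stretch already lay within the annotated gene. Capitals mark a match to AGGTCA, the repeat unit that many nuclear receptors including PPARα bind, or to TGACG, the core of the cAMP response element, on either strand.
Hal, plus strand, chr10:93488518-93488767: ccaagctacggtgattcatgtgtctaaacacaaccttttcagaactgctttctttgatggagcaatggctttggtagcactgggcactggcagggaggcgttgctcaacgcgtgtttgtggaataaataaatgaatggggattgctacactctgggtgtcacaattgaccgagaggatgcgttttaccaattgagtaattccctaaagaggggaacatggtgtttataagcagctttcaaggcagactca
Amdhd1, minus strand, chr10:93540112-93540283: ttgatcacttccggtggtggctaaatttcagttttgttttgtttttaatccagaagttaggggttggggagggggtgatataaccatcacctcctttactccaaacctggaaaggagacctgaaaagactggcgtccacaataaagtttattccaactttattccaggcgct
Uroc1, plus strand, chr6:90333039-90333238: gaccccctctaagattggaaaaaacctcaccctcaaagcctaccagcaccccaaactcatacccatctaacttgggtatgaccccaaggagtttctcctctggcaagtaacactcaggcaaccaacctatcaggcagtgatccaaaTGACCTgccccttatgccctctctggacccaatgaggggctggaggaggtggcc
Ftcd, plus strand, chr10:76575398-76575647: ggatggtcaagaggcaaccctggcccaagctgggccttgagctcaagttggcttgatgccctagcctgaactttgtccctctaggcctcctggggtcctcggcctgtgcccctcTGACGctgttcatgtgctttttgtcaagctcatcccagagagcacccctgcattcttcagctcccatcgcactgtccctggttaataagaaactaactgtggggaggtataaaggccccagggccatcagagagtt
The motif AGGTCA stood in 14.0% of 32536 promoter windows of 250 bases of all genes and in 13 of the 35 measured members that had a promoter in the RefSeq table. Of the 8 such members that fell with DEHP, AGGTCA stood in 1, Uroc1, a share near that of all windows. Its direct repeat AGGTCANAGGTCA, which contains it, was in 0.0338% of all windows and in 0 of the 35 members. TGACG, which is contained in none of the other motifs, was in 17.9% of all windows and in 3 members, and TGTTCT, part of the glucocorticoid response element, in 16% and in 1. A match is a description of letters and not a binding site, and the windows reach only 250 bases.

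Array medians ran between intensities of 44.4 and 47.53, and arrays of 1 group correlated at r = 0.994 to 0.997 across genes, which are not independent replicates. Ppara was lower in null than in wild-type livers under DEHP (-0.64 ± 0.13, adjusted p = 0.00422) and in corn oil (-0.69 ± 0.12, adjusted p = 0.00645). Cyp4a14, the classic PPARα target, differed between DEHP and corn oil by 0.13 (adjusted p = 0.951) in null mice and by 4.97 ± 0.44 (adjusted p = 9.76e-06) in wild-type mice. Cyp2b10, the classic CAR target, rose with DEHP in null mice by 1.55 ± 0.16 (adjusted p = 0.000635), and read 0.46 ± 0.15 (adjusted p = 0.115) in wild-type mice, where the groups did not overlap. Null livers had less Cyp2b10 than wild-type livers in corn oil (-1.23 ± 0.15, adjusted p = 0.000269). Under DEHP the genotypes read alike (-0.14 ± 0.16, adjusted p = 0.699). Of the hepatocyte markers, Alb read 13.82 to 13.95, Ttr 13.52 to 13.70 and Apoa1 13.39 to 13.67 on the log2 scale over all arrays, and the sums of other cell types' markers stand beside the results. The p-values measure the spread between these animals, each arrayed once, and no extraction or scan batch is given in the labels.

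In wild-type mice DEHP lowered the mRNAs of all steps of histidine breakdown, of the entry step of the urea cycle, of the first step of proline breakdown and of single enzymes of choline, cysteine and urate handling. Of 42 members, 9 fell and 1 rose, where 3.86% of all 19938 genes changed (2.29% up and 1.57% down). The 9 that fell were Cps1, Prodh, Dmgdh, Cbs, Hal, Uroc1, Ftcd, Amdhd1 and Urad, and the 1 that rose was Gcsh. A second count left out dim genes and kept the 10292 with a log2 intensity of at least 6 in at least 3 arrays. There 11 members fell (Asl and Gpt added) and 1 rose, where 10.9% of the genes kept changed. Estimates lay below 0 in 31 of the 42, with a median of -0.0861 over the members and -0.015 over all genes. In 14 members no DEHP animal fell within the range of the corn oil animals, 13 of them lower with DEHP, where 11.9% of all genes did not overlap. The falls were small, between folds of 0.671 (Urad) and 0.839 (Uroc1). In whole liver, fewer cells of a type and less RNA per cell cannot be told apart. Summed intensity of the 5 hepatocyte markers ran between 53030 and 55870 in wild-type DEHP mice, against 55930 to 59180 in wild-type corn oil mice, and 0 of them was called singly. The 6 periportal markers that are no members summed to 19090 to 19400 with DEHP and to 20240 to 21130 with corn oil, and 2 of them, Cyp2f2 (-0.27 ± 0.07, adjusted p = 0.0487) and Pigr (-0.42 ± 0.08, adjusted p = 0.00561), fell. Of the 6 periportal estimates 4 lay below 0 and 2 above, the highest at 0.43 and not called. The 10 pericentral markers summed to 34820 to 36360 with DEHP and to 34820 to 36460 with corn oil, with Aldh1a1 called higher and Cyp1a2 and Gulo lower. Of the 10 pericentral estimates 7 lay above 0 and 3 below. The neutrophil markers summed to 198.4 to 249.6 with DEHP and to 132.4 to 159 with corn oil, mostly through S100a8, which rose by 1.78 ± 0.24. Of the 5 neutrophil estimates 3 lay above 0 and 2 below (median 0.0495). The 6 endothelial markers summed to 1848 to 2078 with DEHP and to 2055 to 2310 with corn oil, with Stab2 called lower (-0.33 ± 0.06, adjusted p = 0.00337). Of the 6 endothelial estimates 2 lay above 0 and 4 below (median -0.0974). The 6 stellate markers summed to 1937 to 2068 with DEHP and to 1935 to 2256 with corn oil, with Reln called lower (-0.50 ± 0.10, adjusted p = 0.00762). Of the 6 stellate estimates, however, 4 lay above 0 and 2 below (median 0.0406). The 1 erythroid marker measured, Alas2, lay at intensities of 884.9 to 1405 with DEHP and 1472 to 1490 with corn oil, without overlap and not called (-0.43 ± 0.12, adjusted p = 0.0546). The Kupffer cell, cholangiocyte, T cell, B cell and pancreas markers held no call, and their sums overlapped. The part of these marker shifts in the falls was not tested. Without corn oil animal WT-53 the count of changed members was 5 instead of 10, with Cps1, Dmgdh, Ftcd, Gcsh and Uroc1 no longer called.

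**Figure D1:**
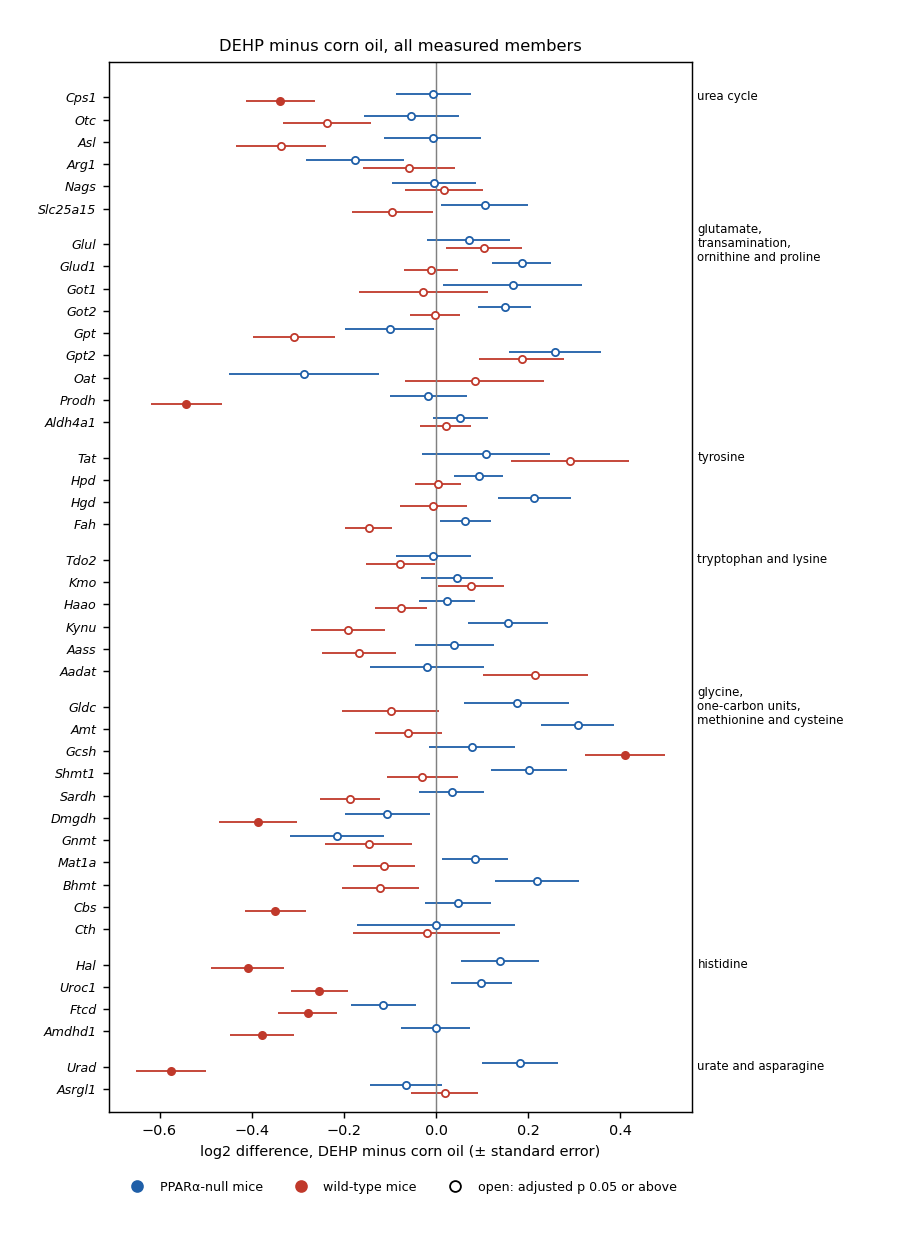
Log2 difference between DEHP and corn oil for the 42 measured members by pathway, in PPARα-null mice (blue, n = 3 against 4) and wild-type mice (red, n = 4 against 4), with standard error bars and filled points where the adjusted p was below 0.05. All filled points are wild-type ones: 9 lie below 0, among them the 4 histidine genes, and Gcsh lies above it.

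All 4 histidine genes fell in wild-type mice. Hal, the first and committed step, read 11.53, 11.39, 11.28 and 11.49 in the DEHP animals, against 11.87, 11.87, 11.70 and 11.88 in the corn oil animals. The groups were apart, and the fall was -0.41 ± 0.08 (fold 0.753, adjusted p = 0.00749). Uroc1 read 10.67, 10.62, 10.67 and 10.54 with DEHP and 10.88, 10.86, 10.85 and 10.94 with corn oil. Each animal given DEHP lay below each given corn oil here too, a fall of -0.25 ± 0.06 (fold 0.839, adjusted p = 0.0309). Amdhd1, the neighbour of Hal, read 10.46, 10.40, 10.30 and 10.34 with DEHP, against 10.77, 10.84, 10.73 and 10.67 with corn oil, a fall of -0.38 ± 0.07 (fold 0.769, adjusted p = 0.00529). Ftcd, which also serves folate metabolism and is thus shared with other one-carbon routes, read 10.97, 10.85, 10.97 and 10.86 with DEHP, against 11.13, 11.21, 11.19 and 11.24 with corn oil. The fall of Ftcd was -0.28 ± 0.06 (fold 0.824, adjusted p = 0.0238). Calls for Hal and Amdhd1 held without any single animal. The call for Uroc1 was lost without animal WT-57, WT-58, WT-59, WT-52, WT-53, WT-54 or WT-55 (adjusted p up to 0.0903), and that for Ftcd without WT-57, WT-59, WT-53, WT-54 or WT-55 (up to 0.071).

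In the null mice the same 4 genes showed no called change. Hal read 11.73, 11.68 and 11.95 in the null DEHP animals, against 11.61, 11.53, 11.75 and 11.71 in the null corn oil animals, a difference of 0.14 ± 0.09 (adjusted p = 0.553). Uroc1 read 10.90, 10.73 and 11.01 with DEHP, and 10.80, 10.79, 10.75 and 10.79 with corn oil (0.10 ± 0.07, adjusted p = 0.605). Both overlapped, with animal KO-123 highest in each. Amdhd1 read 10.42, 10.32 and 10.53 with DEHP, against 10.28, 10.42, 10.46 and 10.55 with corn oil, a difference of -0.00 ± 0.07 with a 95% interval of -0.16 to 0.16 (adjusted p = 0.997). Ftcd read 11.03, 10.81 and 11.08 with DEHP, against 11.05, 11.12, 11.05 and 11.13 with corn oil (-0.11 ± 0.07, adjusted p = 0.552), with animal KO-122 low and the others inside the corn oil range or just below it. For Amdhd1 both null groups lay at the level of the wild-type DEHP animals, below the wild-type corn oil animals.

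**Figure D2:**
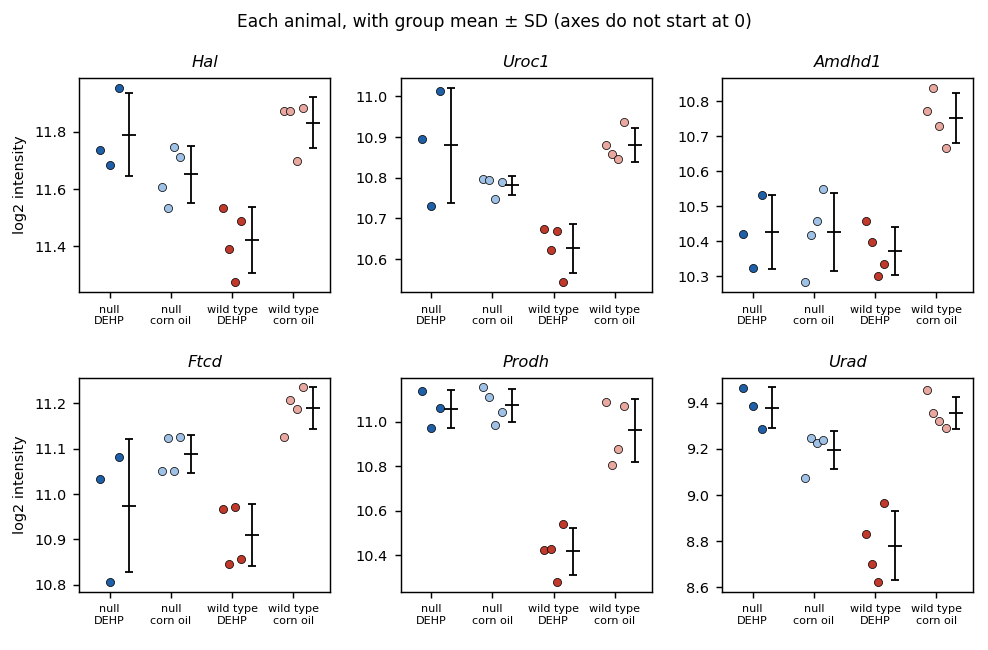
Log2 intensity of 6 members that fell with DEHP in wild-type mice, 1 point per animal, with group mean ± SD (PPARα-null DEHP n = 3, the other groups n = 4). In each panel the wild-type DEHP animals lie below all wild-type corn oil animals, while the null DEHP and null corn oil animals overlap except for Urad, where the null DEHP animals are higher.

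In the urea cycle, DEHP lowered 1 of 6 genes in wild-type mice. Cps1 encodes the mitochondrial carbamoyl phosphate synthetase that fixes ammonia and sets the pace of the cycle. It read 13.02, 13.09, 12.95 and 13.12 in wild-type DEHP animals, against 13.43, 13.40, 13.40 and 13.30 in wild-type corn oil animals. No animals overlapped, and the fall was -0.34 ± 0.08 (fold 0.791, adjusted p = 0.019). The call was lost without animal WT-56, WT-58, WT-52, WT-53 or WT-54 (adjusted p up to 0.0616). In null mice Cps1 read 13.18, 13.01 and 13.31 with DEHP, against 13.19, 13.19, 13.01 and 13.29 with corn oil (-0.01 ± 0.08, 95% interval -0.18 to 0.17). Asl, argininosuccinate lyase, which frees arginine and fumarate, read 11.37, 11.39, 11.21 and 11.33 with DEHP and 11.93, 11.50, 11.60 and 11.62 with corn oil in wild-type mice. The groups did not overlap, but the difference of -0.34 ± 0.10 missed the threshold (adjusted p = 0.0696), and corn oil animal WT-52 stood above the other 3. Otc, which makes citrulline, differed by -0.24 ± 0.10 (adjusted p = 0.214), and Arg1, the arginase that releases urea, by -0.06 ± 0.10 (adjusted p = 0.84). Nags, which makes the activator of Cps1, and the mitochondrial ornithine carrier Slc25a15 were not called either.

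Among the 9 genes of glutamate, transamination, ornithine and proline, Prodh fell and none rose in wild-type mice. Prodh encodes proline dehydrogenase, which starts proline breakdown on the inner mitochondrial membrane. Wild-type DEHP animals read 10.42, 10.43, 10.28 and 10.54, against 11.09, 10.80, 10.88 and 11.07 in wild-type corn oil animals. The highest DEHP animal (10.54) was below the lowest corn oil animal (10.80), and the fall was -0.54 ± 0.08 (fold 0.687, adjusted p = 0.000771). It remained called without any single animal. In null mice Prodh read 11.14, 10.97 and 11.06 with DEHP, and 11.15, 11.11, 10.99 and 11.04 with corn oil, overlapping at a difference of -0.02 ± 0.08 (95% interval -0.19 to 0.16). Gpt, the cytosolic alanine aminotransferase, read 10.61, 10.49, 10.55 and 10.60 with DEHP, against 11.06, 10.70, 10.78 and 10.95 with corn oil in wild-type mice. These groups were apart, yet the difference of -0.31 ± 0.09 was not called (adjusted p = 0.0698). The remaining genes of the pathway, among them glutamate dehydrogenase (Glud1), both aspartate aminotransferases (Got1, Got2) and the mitochondrial alanine aminotransferase Gpt2, read between -0.03 and 0.19 in wild-type mice and were not called.

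The 11 genes of glycine, one-carbon units, methionine and cysteine held 2 falls and the only rise in wild-type mice. Dmgdh, dimethylglycine dehydrogenase of choline breakdown, read 11.86, 11.86, 11.85 and 11.89 with DEHP, against 12.43, 12.28, 12.22 and 12.08 with corn oil. The DEHP animals lay within a narrow band below all corn oil animals, a fall of -0.39 ± 0.09 (fold 0.765, adjusted p = 0.0186), which was not called without animal WT-52 or WT-53 (adjusted p up to 0.0599). Cbs, cystathionine β-synthase, which commits homocysteine to cysteine, read 11.35, 11.37, 11.10 and 11.22 with DEHP, against 11.68, 11.62, 11.57 and 11.57 with corn oil (-0.35 ± 0.07, fold 0.785, adjusted p = 0.00665). The call for Cbs held without any single animal. Gcsh encodes the H protein, the lipoyl carrier of the glycine cleavage system. It rose: DEHP animals read 9.20, 9.07, 9.02 and 9.34, and corn oil animals 8.76, 8.61, 8.79 and 8.83, a difference of 0.41 ± 0.09 (fold 1.33, adjusted p = 0.0137), lost without animal WT-53 (adjusted p = 0.0544). The other subunits of this complex that are in the module did not show this: Gldc, the glycine decarboxylase, read -0.10 ± 0.11 (adjusted p = 0.728) and Amt, the aminomethyltransferase, -0.06 ± 0.07 (adjusted p = 0.769). In null mice Dmgdh read -0.11 ± 0.09, Cbs 0.05 ± 0.07 and Gcsh 0.08 ± 0.09 between DEHP and corn oil (adjusted p = 0.715, 0.858 and 0.816). Sardh, the next enzyme after Dmgdh, had wild-type groups that did not overlap (12.16, 12.16, 12.14 and 12.23 with DEHP, against 12.42, 12.32, 12.35 and 12.34 with corn oil), with a difference of -0.19 ± 0.06 that was not called (adjusted p = 0.138).

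Urad had the largest fall of the 42 members. It encodes the decarboxylase that completes the conversion of urate to allantoin in mice. Wild-type DEHP animals read 8.83, 8.70, 8.62 and 8.96, against 9.45, 9.36, 9.32 and 9.29 in wild-type corn oil animals, a fall of -0.58 ± 0.08 (fold 0.671, adjusted p = 0.000407). The groups were well apart and the call held without any single animal. Null animals went the other way without passing the threshold, at 9.46, 9.39 and 9.29 with DEHP, against 9.07, 9.25, 9.22 and 9.24 with corn oil. Those groups did not overlap either, and the difference was 0.18 ± 0.08 (unadjusted p = 0.041, adjusted p = 0.377). Asrgl1, an asparaginase, read 0.02 ± 0.07 in wild-type mice (adjusted p = 0.936). No gene of tyrosine breakdown and none of tryptophan and lysine breakdown was called with DEHP in wild-type mice. Of these 10, Fah, the last enzyme of tyrosine breakdown, had wild-type groups apart at 11.77, 11.76, 11.89 and 11.83 with DEHP, against 11.97, 11.98, 11.96 and 11.92 with corn oil (-0.15 ± 0.05, adjusted p = 0.144). Tat, the tyrosine aminotransferase that glucocorticoids induce, read 0.29 ± 0.13 and was not called.

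In PPARα-null mice 0 of 42 members passed limma's threshold for DEHP against corn oil (n = 3 against 4), where 0.471% of all genes did. At an unadjusted p below 0.05 there were 8 members, namely Glud1, Got2, Gpt2, Hgd, Amt, Shmt1, Bhmt and Urad, where 12.3% of all genes reached that level. Differences ran between -0.29 (Oat) and 0.31 (Amt), with a median of 0.0498 over the members and 0.0137 over all genes. Groups did not overlap in 8 members, 1 of them lower with DEHP, against 9.99% of genes. Amt was the nearest to the threshold. It read 9.70, 9.72 and 9.92 in null DEHP animals, against 9.45, 9.35, 9.58 and 9.51 in null corn oil animals (0.31 ± 0.08, adjusted p = 0.089). Oat, which had the lowest estimate, read 12.01, 12.20 and 12.01 with DEHP and 12.66, 12.33, 12.31 and 12.14 with corn oil, and overlapped. For the 9 members that fell in wild-type mice, the null difference lay between -0.11 (Ftcd) and 0.18 (Urad). Missing the threshold does not show that DEHP left these genes unchanged in null mice: the 95% interval for Dmgdh ran between -0.30 and 0.09. Pericentral markers summed to 39270 to 40900 with DEHP and to 35230 to 38600 with corn oil in null mice. Of these 10 estimates 6 lay above 0 and 4 below, with 1 marker called higher. Endothelial markers summed to 2358 to 2618 with DEHP and to 2057 to 2278 with corn oil. All 6 endothelial estimates lay above 0, none called. The sums of the other marker lists overlapped, without a call. The part of these shifts in the null values was not tested.

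Whether the DEHP effect itself differed between the genotypes was tested as null effect minus wild-type effect. Of 42 members 3 passed the threshold, while 0.898% of all genes did (0.336% higher and 0.562% lower). All 3 are among the members that fell in wild-type mice. This difference contains that same wild-type effect, so its sign in members that fell is not separate evidence. Urad differed by 0.76 ± 0.11 (adjusted p = 0.00537), Hal by 0.55 ± 0.12 (adjusted p = 0.0364) and Prodh by 0.53 ± 0.11 (adjusted p = 0.0397). Urad was called without any single animal. Hal was not called without animal WT-57, WT-58, WT-52, WT-53, WT-55, KO-122, KO-123 or KO-115 (adjusted p up to 0.0865), and Prodh was called without WT-59, WT-53 or KO-116 but not without any of the other 12 animals (adjusted p up to 0.0801). Prodh was also not called under quantile normalization (adjusted p = 0.0642) or with array weights (adjusted p = 0.0514). Cbs (0.40 ± 0.10, adjusted p = 0.0661), Uroc1 (0.35 ± 0.09, 0.0759) and Amdhd1 (0.38 ± 0.10, 0.0858) came next and were not called. Cps1, Dmgdh and Ftcd read 0.33, 0.28 and 0.16, and Gcsh -0.33, none of them called. Of the 4 histidine genes, only Hal was thus called here. Over all members the median of this difference was 0.1974, and 0.0281 over all genes. Among the cell type and zonal markers, Stab2 (0.43 ± 0.08), Cyp1a2 (0.63 ± 0.11), Gulo (0.61 ± 0.10) and Pigr (0.59 ± 0.12) were called in this comparison too, and their part in it was not tested. Cyp1a2 and Gulo are pericentral markers, but of the 10 pericentral estimates 4 lay above 0 and 6 below (median -0.0782). Of the 6 periportal estimates, with Pigr among them, 4 lay above 0 and 2 below. All 6 endothelial estimates, with Stab2 among them, lay above 0.

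Under DEHP, null livers had higher mRNA levels than wild-type livers for 6 of the 9 enzymes that fell with DEHP in wild-type mice, and lower levels of Arg1, Aadat and Gcsh. Of 42 members 10 were higher and 3 lower, where 10.7% of all genes differed (5.09% higher and 5.61% lower). With dim genes left out, 11 were higher (Aass added) and 3 lower, where 27.1% of the 10292 genes left differed. The median was 0.1149 over the members and 0.0244 over all genes, and 19 members did not overlap (3 lower in null mice), against 20.5% of genes. This comparison shares its animals with the preceding ones, so the values for members that fell with DEHP in wild-type mice are not separate evidence. Prodh was higher by 0.64 ± 0.08 (fold 1.56, adjusted p = 0.000174) and Urad by 0.60 ± 0.08 (fold 1.51, adjusted p = 0.000249). Cbs (0.35 ± 0.07, adjusted p = 0.00433), Hal (0.37 ± 0.09, 0.0107), Uroc1 (0.25 ± 0.07, 0.0225) and Dmgdh (0.31 ± 0.09, 0.0443) were higher as well, all with non-overlapping groups. Amdhd1 and Ftcd, by contrast, read 0.05 ± 0.07 and 0.06 ± 0.07 and overlapped (adjusted p = 0.756 and 0.673). Summed marker intensity in null DEHP animals was 56530 to 59460 for hepatocytes, against 53030 to 55870 in wild-type DEHP animals. Periportal markers summed to 21860 to 24490 in null and 19090 to 19400 in wild-type animals, and pericentral ones to 39270 to 40900 in null and 34820 to 36360 in wild-type animals. Endothelial markers summed to 2358 to 2618 in null and 1848 to 2078 in wild-type animals, and stellate markers to 2322 to 3149 in null and 1937 to 2068 in wild-type animals. Alas2 lay at intensities of 1496 to 1869 in null and 884.9 to 1405 in wild-type animals, and was called higher (0.63 ± 0.13, adjusted p = 0.00501). None of these ranges overlapped, and of the single markers Apob, Pigr, 3 of 10 pericentral, 4 of 6 endothelial and 2 of 6 stellate ones were called higher. Not all estimates went up with the sums. Of the 5 hepatocyte estimates 3 lay above 0 and 2 below, and of the 6 periportal ones 5 above and 1 below. Of the 10 pericentral estimates 7 lay above 0 and 3 below, the lowest at -0.22. All 6 endothelial and all 6 stellate estimates lay above 0. The 7 Kupffer cell markers summed to 2112 to 2488 in null and 1489 to 2295 in wild-type animals, which overlapped. All 7 estimates lay above 0 (median 0.3534), and Csf1r was called (0.44 ± 0.11, adjusted p = 0.0193). Neutrophil sums overlapped, and of the 5 estimates 2 lay above 0 and 3 below (median -0.1038). Of these markers Ly6g was called higher (0.30 ± 0.08, adjusted p = 0.0299), at a dim log2 intensity of 3.51 to 4.09 over all arrays. The part of these markers in the differences was not tested.

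Kynu, kynureninase of tryptophan breakdown, read 11.82, 11.93 and 11.88 in null DEHP animals, against 11.41, 11.51, 11.34 and 11.58 in wild-type DEHP animals. The groups were apart and the difference was 0.42 ± 0.09 (fold 1.33, adjusted p = 0.00567). Fah, which splits fumarylacetoacetate, read 11.99, 12.03 and 12.07 in null animals, against 11.77, 11.76, 11.89 and 11.83 in wild-type animals (0.22 ± 0.06, fold 1.17, adjusted p = 0.0171). Sardh, sarcosine dehydrogenase, read 12.43, 12.27 and 12.57 in null animals, against 12.16, 12.16, 12.14 and 12.23 in wild-type animals (0.25 ± 0.07, fold 1.19, adjusted p = 0.0303). Every null animal was above every wild-type animal in all 3 genes. Arg1 went the opposite way, at 12.28, 11.84 and 12.31 in null DEHP animals, against 12.53, 12.55, 12.53 and 12.53 in wild-type DEHP animals (-0.40 ± 0.11, fold 0.761, adjusted p = 0.0266). Animal KO-122 was far below the other nulls, and without it the difference was -0.24 (adjusted p = 0.164). Aadat, the aminoadipate aminotransferase of lysine and kynurenine breakdown, read 9.24, 9.36 and 9.37 in null animals, against 9.62, 9.52, 9.79 and 10.23 in wild-type animals (-0.47 ± 0.12, fold 0.723, adjusted p = 0.0228). Wild-type animal WT-59 stood high here, and the call held without it. Gcsh, which had risen with DEHP in wild-type mice, read 8.58, 8.79 and 8.70 in null animals, against 9.20, 9.07, 9.02 and 9.34 in wild-type animals (-0.47 ± 0.09, fold 0.724, adjusted p = 0.00436).

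Without null animal KO-123, 7 of the 13 calls were left, with Dmgdh, Fah, Glul, Hal, Sardh and Uroc1 below the threshold, and without wild-type animal WT-56 there were 8. Singly, Dmgdh was lost without WT-56, WT-57, WT-58, WT-59, WT-53, WT-54, KO-121, KO-123, KO-115 or KO-116 (adjusted p up to 0.206), Sardh without WT-56, WT-57, WT-58, KO-121 or KO-123 (0.143) and Arg1 without WT-56, WT-57, WT-59 or KO-122. Glul and Fah were lost without WT-56, KO-122 or KO-123 (0.0994 and 0.0629), Uroc1 without WT-59, KO-121 or KO-123 (0.109), Aadat without KO-121 or KO-122 (0.079) and Hal without KO-123 (0.0577). Prodh, Kynu, Gcsh, Cbs and Urad remained called without any single animal. A model of only the null DEHP and wild-type DEHP groups lost another set of 6 calls: Aadat (adjusted p = 0.107), Arg1 (0.0675), Dmgdh (0.0901), Fah (0.0797), Sardh (0.108) and Uroc1 (0.102). Quantile normalization lost Dmgdh, Sardh and Glul, and array weights Dmgdh.

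**Figure D3:**
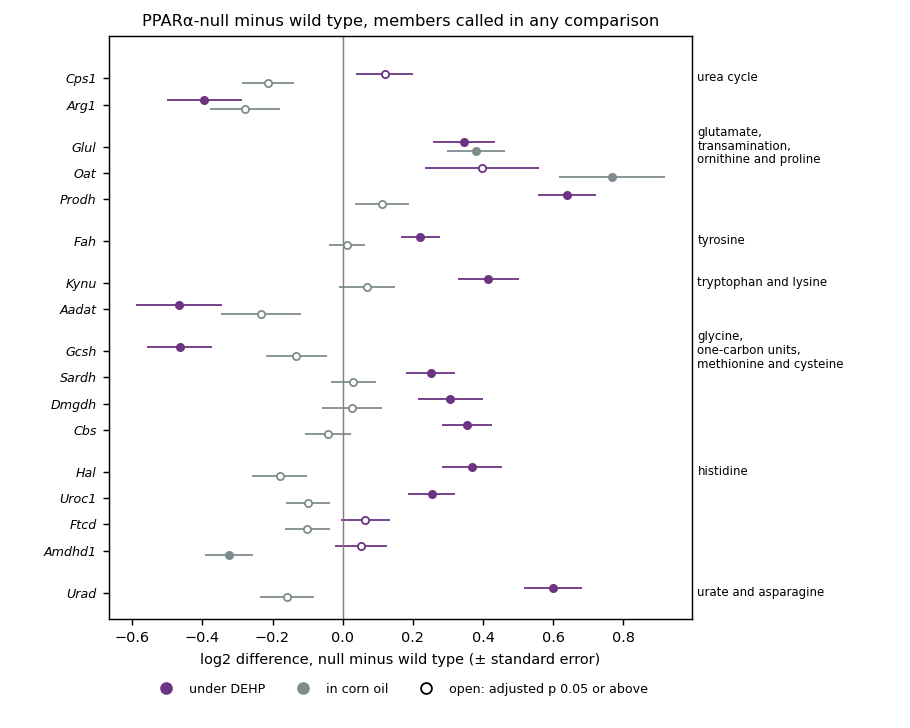
Log2 difference between PPARα-null and wild-type mice for the 17 members called in any comparison, under DEHP (purple, n = 3 against 4) and in corn oil (grey, n = 4 against 4), with standard error bars and filled points where the adjusted p was below 0.05. Under DEHP 10 members lie higher and 3 lower in null mice, while in corn oil Glul and Oat are higher and Amdhd1 is lower.

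In corn oil, where no DEHP was given, null livers had more Glul and Oat and less Amdhd1 mRNA than wild-type livers. These were 3 of 42 members, where 1.19% of all genes differed. With dim genes left out 4 were called, Gldc added as lower, where 3.23% of the 10292 genes left differed. Glul, the glutamine synthetase that catches ammonia in pericentral cells, read 12.54, 12.17, 12.28 and 12.14 in null animals, against 11.87, 12.02, 11.93 and 11.79 in wild-type animals. The groups did not overlap at a difference of 0.38 ± 0.08 (fold 1.3, adjusted p = 0.033), and a second probe set of Glul gave 0.39. Under DEHP Glul read 12.29, 12.41 and 12.36 in null animals and 11.90, 12.08, 12.04 and 12.01 in wild-type animals (0.35 ± 0.09, fold 1.27, adjusted p = 0.0204), and its second probe set gave 0.32. Glul was the one member called for genotype with and without DEHP, but under quantile normalization its call under DEHP was lost (0.26, adjusted p = 0.0666). Oat, ornithine aminotransferase, the pericentral route from ornithine to glutamate, read 12.66, 12.33, 12.31 and 12.14 in null corn oil animals, against 12.01, 11.16, 11.58 and 11.62 in wild-type corn oil animals. The lowest null animal was above the highest wild-type one, and the difference was 0.77 ± 0.15 (fold 1.7, adjusted p = 0.0167). Oat differed by 0.40 ± 0.16 under DEHP, without passing the threshold (adjusted p = 0.146). Amdhd1 read 10.28, 10.42, 10.46 and 10.55 in null corn oil animals, against 10.77, 10.84, 10.73 and 10.67 in wild-type corn oil animals, a difference of -0.32 ± 0.07 (fold 0.799, adjusted p = 0.0288).

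Over all 42 members, these 3 included, the median was -0.0754, against -0.008 over all genes, and 28 of 42 estimates lay below 0. In 14 members the groups did not overlap, 12 of them lower in null mice, where 7.72% of all genes did not overlap. Gldc, which releases carbon dioxide from glycine, came nearest to the threshold: it averaged 10.49 ± 0.14 in null animals, against 10.91 ± 0.09 in wild-type animals (SD, n = 4 each), apart from each other (-0.42 ± 0.11, adjusted p = 0.0727). Pericentral marker sums were 35230 to 38600 in null animals, against 34820 to 36460 in wild-type animals, with Gulo (0.33 ± 0.07, adjusted p = 0.0173) and Slc1a2 (0.45 ± 0.09, adjusted p = 0.0177) called higher. Periportal sums were 20760 to 22050 in null and 20240 to 21130 in wild-type animals, with Pck1 called higher (0.74 ± 0.14, adjusted p = 0.014). The 6 periportal estimates were split, 3 above 0 and 3 below (median 0.048). Stellate sums were 2419 to 3554 in null and 1935 to 2256 in wild-type animals, without overlap. All 6 stellate estimates lay above 0 (median 0.4879) and none was called. Kupffer cell sums were 1899 to 2475 in null and 1666 to 1944 in wild-type animals, and all 7 estimates lay above 0 (median 0.2542), none called. The part of these shifts in the Glul, Oat and Amdhd1 differences was not tested. All 3 calls were lost without wild-type animal WT-54 or null animal KO-115, and Amdhd1 and Glul without WT-52 or KO-117. Amdhd1 was also lost without WT-53 or KO-116 and Glul without WT-55 (adjusted p up to 0.1 for Amdhd1, 0.102 for Glul and 0.0633 for Oat). With only the 2 corn oil groups in the model none of the 3 was called, while Gldc was.

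**Figure D4:**
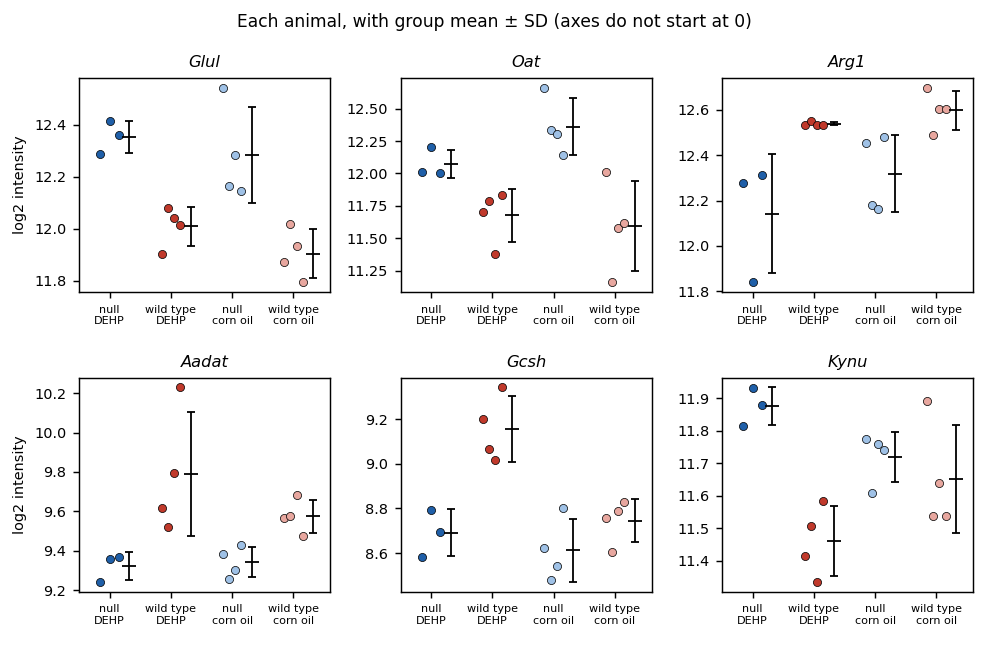
Log2 intensity of 6 members that differed between PPARα-null and wild-type mice, 1 point per animal, with group mean ± SD (null DEHP n = 3, the other groups n = 4). Glul and Oat lie higher in both null groups than in the wild-type group of the same treatment, Arg1 and Aadat lie lower, and Gcsh and Kynu are apart under DEHP.

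The other 25 members were called in none of the 5 comparisons. Their DEHP differences ran between -0.21 and 0.31 in null mice and between -0.34 and 0.29 in wild-type mice, and their genotype differences between -0.15 and 0.35 under DEHP and between -0.42 and 0.15 in corn oil. Glud1, the hub that releases ammonia from glutamate, averaged 12.48 ± 0.05 (SD, n = 3) in null DEHP, 12.29 ± 0.05 (n = 4) in null corn oil, 12.40 ± 0.10 in wild-type DEHP and 12.41 ± 0.04 in wild-type corn oil mice. Hpd, which makes homogentisate in tyrosine breakdown, averaged 13.44 ± 0.01 in null DEHP, 13.35 ± 0.05 in null corn oil, 13.37 ± 0.04 in wild-type DEHP and 13.37 ± 0.03 in wild-type corn oil mice. Tdo2, the dioxygenase that opens tryptophan, averaged 12.59 ± 0.15 in null DEHP, 12.59 ± 0.11 in null corn oil, 12.47 ± 0.10 in wild-type DEHP and 12.55 ± 0.03 in wild-type corn oil mice. No comparison of these 3 genes passed the threshold. Bhmt, the betaine methyltransferase that remakes methionine, averaged 13.61 ± 0.13 in null DEHP, 13.39 ± 0.10 in null corn oil, 13.39 ± 0.11 in wild-type DEHP and 13.51 ± 0.14 in wild-type corn oil mice. For DEHP in wild-type mice the probe set of Bhmt used here gave -0.12, another bright one -0.13, and a dim one 0.25. Mat1a and Gnmt, which make and use S-adenosylmethionine, Shmt1 of the serine to glycine step and Cth, which releases cysteine, were among the 25.

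Of 72 further genes measured around these pathways, 3 rose and 7 fell with DEHP in wild-type mice, where 3.86% of all genes changed (2.29% up and 1.57% down). In null mice 0 of the 72 were called by limma, where 0.471% of all genes were. The largest rise was that of Csad, which makes the taurine precursor hypotaurine from cysteine products, at 1.70 ± 0.23 (fold 3.24, adjusted p = 0.000531), the single call among 10 genes of sulfur amino acids. Branched-chain amino acid breakdown held 1 rise and 3 falls in 18 genes. There Hibch of the valine route rose by 0.48 ± 0.06 (adjusted p = 0.000407), and Dbt of the branched-chain ketoacid dehydrogenase (-0.33 ± 0.08), the aminotransferase Bcat2 (-0.31 ± 0.07) and the propionyl-CoA carboxylase subunit Pccb (-0.21 ± 0.05) fell. In the tryptophan and lysine branch 2 of 9 fell, the peroxisomal pipecolate and sarcosine oxidase Pipox (-0.29 ± 0.06, adjusted p = 0.0102) and Ido2 (-0.32 ± 0.08, adjusted p = 0.034). Both also differed between genotypes in their DEHP effect, Pipox by 0.54 ± 0.09 (adjusted p = 0.00963) and Ido2 by 0.69 ± 0.12 (adjusted p = 0.0142). Among 14 carriers the glycine transporter Slc6a9 rose by 0.51 ± 0.11 and the large neutral amino acid carrier Slc43a1 fell (-0.63 ± 0.12). Of 13 regulators 1 fell, the glucagon receptor gene Gcgr (-0.31 ± 0.06, adjusted p = 0.0103), and none of 8 serine, alanine, asparagine and glutamine enzymes changed.

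Between null and wild-type mice under DEHP, 13 of the 72 were higher and 7 lower, where 10.7% of all genes differed (5.09% higher and 5.61% lower). All 4 calls in the tryptophan and lysine branch were higher in null mice: Pipox (0.50 ± 0.06), Dhtkd1 (0.43 ± 0.07), Ido2 (0.39 ± 0.09) and Acmsd (0.85 ± 0.26). Dbt (0.39 ± 0.08) and Bcat2 (0.34 ± 0.08) were higher, and Hibch (-0.34 ± 0.07) and Bckdha (-0.23 ± 0.06) lower. Among regulators the nuclear receptor Hnf4a was higher (0.33 ± 0.08), and the mitochondrial deacylases Sirt3 (-0.49 ± 0.09) and Sirt5 (-0.24 ± 0.07) were lower. In corn oil 1 of the 72 was called, near the 1.19% of all genes: the glutamate carrier Slc1a2, which was higher in null mice and stands next to Glul in pericentral cells.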

How the data were processed

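Per the labels' protocols, total liver RNA was isolated with a mirVana kit and 300 ng entered an Affymetrix GeneChip WT labelling; the authors deposited 1 intensity per probe set and array on a linear scale, already brought to a common scale by a method not given in the sources used here. The members and gene lists were chosen with earlier results of these data known. Log2 of the intensity was taken without a constant or further normalization. Of 35494 probe sets, 21789 had 1 gene symbol in GEO's platform annotation, 1621 several and 12084 none, which gave 19938 genes; 999 of these had several probe sets. In limma 3.58.1 (R 4.3.3) a linear model with 1 mean per group over all 15 arrays gave moderated tests (residual degrees of freedom 11, prior 4.68), adjusted by Benjamini-Hochberg over all genes per comparison, called below 0.05 whatever the fold. Members called in any comparison were given with every array, others by pathway range and the brightest of each pathway, and from other lists up to 4 called genes with the lowest adjusted p. The alternatives were each array left out, only the groups compared, quantile normalization, dim genes left out (log2 intensity of at least 6 in at least 3 arrays), log2(value + 16), array weights, trend and robust moderation, and the mean of probe sets. The procedure was tested on simulated data. Probe set positions and the array's genome build were not used here. Summaries used pandas 2.3.3 and numpy 2.4.6 in Python 3.11.15, and figures matplotlib 3.10.9. The number of arrays limits the precision.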

Additional observations from a re-analysis of the deposited data

Results flagged for a closer look

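In 3 members the DEHP effect differed between genotypes, given here as null effect minus wild-type effect: Prodh by 0.53, Hal by 0.55 and Urad by 0.76 on the log2 scale.

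In 10 of 126 groups of 4 animals (7.94%), 1 animal stood apart from the other 3 by Dixon's ratio of gap to range at his 95% critical value, where chance gives about 1 in 20. Otc read 10.99 in wild-type DEHP animal WT-59, against 10.61 to 10.66 in the others (ratio 0.859), and Dmgdh 11.89 in the same animal, against 11.85 to 11.86 (0.877). Arg1 read 12.55 in wild-type DEHP animal WT-57, against 12.53 in the other 3 (0.931), within a group whose whole spread was small. Gnmt read 12.71 in wild-type DEHP animal WT-58, against 13.01 to 13.06 (0.855), and Hal 11.70 in wild-type corn oil animal WT-54, against 11.87 to 11.88 (0.943). Among null corn oil animals, Hpd read 13.28 in animal KO-117, against 13.37 to 13.38 (0.928), and Uroc1 10.75 in the same animal, against 10.79 to 10.80 (0.852). Cth read 12.38 in animal KO-115, against 11.96 to 11.99 (0.914), Urad 9.07 in the same animal, against 9.22 to 9.25 (0.869), and Asrgl1 7.58 in animal KO-118, against 7.33 to 7.34 (0.95).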

How the results depend on the processing

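No called difference of a named member changed its sign under any alternative run. Leaving out each animal in turn gave 5 to 11 called members for DEHP in wild-type mice (10 with all animals) and 0 to 0 in null mice. It gave 1 to 3 for the difference of the DEHP effects, 7 to 13 for null against wild type under DEHP and 0 to 4 in corn oil. For the difference of effects the count was 1 without wild-type animal WT-57, WT-58, WT-52 or WT-55 or null animal KO-122, KO-123 or KO-115. With dim genes left out (10292 genes remained), the called members numbered 1 for DEHP in null mice and 7 for the difference of effects, where 3.98% and 5.48% of all genes were called. Log2(value + 16) gave 1 and 6 there (1.44% and 2.1% of all genes), and trend and robust moderation 1 and 6 (1.47% and 2.13%). With the settings of the report these shares were 0.471% and 0.898%. Quantile normalization and array weights gave 2 for the difference of effects, without Prodh. The added call in null mice was Amt, higher with DEHP, and those for the difference of effects were Amdhd1, Cbs and Uroc1, joined by Amt with dim genes left out. The cause was not tested. Models that held only the groups compared gave 7 instead of 13 for null against wild type under DEHP and 1 instead of 3 in corn oil, with fewer animals behind the spread. The share of all genes called for DEHP in null mice moved between 0.0451% and 0.843% when 1 animal was left out, lowest without null animal KO-122. Quantile normalization gave 14 called members for DEHP in wild-type mice (Aass, Asl, Fah and Gpt added) and turned the members' median DEHP difference in null mice to -0.0352, against 0.0498. No paired analysis was possible because the groups share no animal numbers.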
